A study of Mus musculus with 5 samples.

Results

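The 782 regions described here are places where both WT1 libraries of the KTS-minus line listed a strong peak and neither library of the parental M15 line listed any peak. They were chosen by the authors' own max signal, the highest coverage inside a peak, and by the M15 lists. In each KTS-minus list the 10% of peaks with the highest max signal were kept as a top list, 31100 peaks in replicate 1 and 24443 in replicate 2. Peaks of the top lists that shared at least 1 bp were merged. Of the 5341 merged regions touched by both top lists, 782 (14.6%, 95% Wilson interval 13.7 to 15.6, counting error only) shared no base with a peak of either full M15 list, and the other 4559 did. All 4 full lists together merge into 455287 regions. Among the 83784 regions found in both full KTS-minus lists, 73.3% lacked an M15 peak. Both shares follow from the rule and from the lengths of the lists, and nothing is read from them.

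WT1 is a zinc-finger transcription factor that the kidney and the gonad need to form. Its gene is spliced so that the residues lysine, threonine and serine (KTS) are added or left out between the last zinc fingers. The form without KTS binds DNA at GC-rich sites that resemble those of the early growth response factors, and the form with KTS is better known for its association with RNA and splicing factors.

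WT1 occupancy was measured by CUT&RUN, in which an antibody on the chromatin of permeabilised cells tethers a nuclease that releases the DNA beside the bound protein. The KTS-minus line (2 libraries) is an M15 derivative edited for the KTS isoforms. The labels do not spell out which isoform it still makes, nor whether it is 1 clone. It is set against M15 itself (2 libraries), a line of mouse mesonephric epithelium. Polyoma virus large T was used to transform M15, so both lines carry it, and an M15 IgG library was not analysed here.

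The lists were of very unequal length, which touches every statement about a missing M15 peak. KTS-minus replicates 1 and 2 held 310999 and 244428 peaks over 434 and 199 Mb, against 6440 and 60925 peaks over 12.3 and 71.9 Mb in M15 replicates 1 and 2. A site can therefore lack an M15 peak because WT1 was not there or because the shorter list did not reach it, and these cannot be told apart. Max signal has no scale common to the libraries and is compared only inside a library. Read depth is unknown. The labels do not say that replicates came from separate cultures. Coordinates are mm9, counted from 1. No mm9 genome or annotation was at hand, so genes, promoters, motifs and sequences at the regions are not given, and peak lists hold no expression values against which the cell line could be checked.

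The strongest region without an M15 peak lay on chromosome 10 from 117225399 to 117232103. It reached 52 and 58 in KTS-minus replicates 1 and 2, and the stretches, the runs of bases at which the libraries reached these values were 23 bp apart. The second lay on chromosome X from 4780314 to 4785236, with max signals of 54 and 52 in replicates 1 and 2. These regions differ in their distance from M15 binding: the nearest M15 peak was 29461 bp from the chromosome 10 region and 486 bp from the chromosome X region. The third, on chromosome 8 from 14289253 to 14289986, was only 734 bp wide and had max signals of 34 and 53 in replicates 1 and 2. Its strongest stretches overlapped, and its nearest M15 peak was 16462 bp away.

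The next regions by mean rank were on chromosomes 6, 1 and 18. The chromosome 6 region from 12759325 to 12765247 had max signals of 29 and 63 in replicates 1 and 2 and lay 27146 bp from M15 binding. The chromosome 1 region from 188284566 to 188286611 had 32 and 54. The chromosome 18 region from 14261623 to 14262085 had 54 and 47, was 463 bp wide, and was both among the 3 narrowest and among the 3 farthest from any M15 peak, at 522877 bp. A second region from 14307498 to 14308037 on the same chromosome, with max signals of 21 and 34, was the farthest of all at 568752 bp. The pair lies alone in a stretch without listed M15 binding. The last of the 8 strongest were on chromosome 1 from 93146435 to 93146939 (31 and 49) and on chromosome 9 from 35151409 to 35155113 (26 and 81). The value of 81 is the highest of any region of the set in replicate 2, yet an M15 peak ended 609 bp away.

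Max signals across the 782 regions stayed near the lower limits of the top lists. In KTS-minus replicate 1 they ran from 19 through a median of 22 to 54, and at the other 4559 shared regions from 19 through 26 to 319. In replicate 2 they ran from 32 through 36 to 81, and at the other shared regions from 32 through 43 to 1165. The sets overlap over the whole range of the regions without an M15 peak, and the highest values all belong to regions with one. With the merged regions kept as they were, 6 regions without an M15 peak and 997 of the others had a peak among the strongest 1% in both libraries, and 223 and 2916 had one among the strongest 5%.

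**Figure D1:**
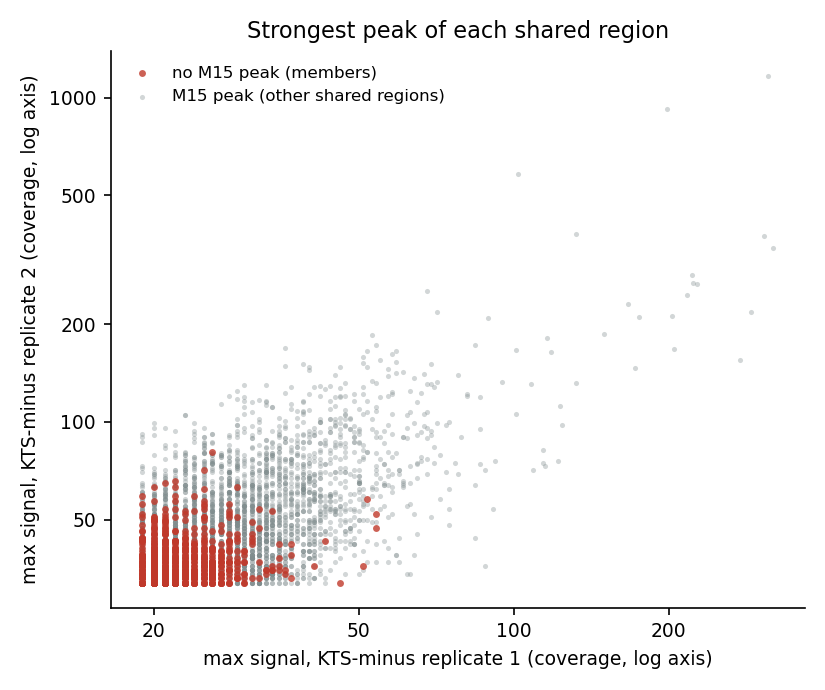
Max signal (coverage, log axes) of the strongest peak in KTS-minus replicate 1 (x) and replicate 2 (y) for each region shared by the top lists. Red points, the 782 regions without an M15 peak, lie at 19 to 54 on x and 32 to 81 on y, and grey points, the 4559 regions with an M15 peak, reach 319 and 1165.

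The limits of the top lists fell inside ties of max signal. The last peak kept had a max signal of 19 in replicate 1, a value that 8892 peaks share and of which 2002 were kept. In replicate 2 it was 32, shared by 4786 peaks, of which 3309 were kept. The order within these ties comes from total signal, the coverage summed over the peak, which favours wide peaks. Just inside the limit lay a chromosome 5 region that began at 76864151 and ended at 76868816, with 19 and 32 in replicates 1 and 2. A chromosome 19 region between 18953430 and 18956863 (19 and 32) and a chromosome 7 region between 63063848 and 63065841 (21 and 32) were next to it. Just outside lay 2 chromosome 6 regions, between 149247286 and 149249775 (19 and 33) and between 115419790 and 115421527 (19 and 32), with a chromosome 9 region between 75235419 and 75237084 (20 and 32). Regions on either side of the limit thus had the same max signals. The strength of a region in one KTS-minus library said little about its strength in the other: Spearman's rho over the 782 regions, which share these 2 libraries and begin at a limit on both axes, was 0.06, against 0.43 over the other shared regions.

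The number of regions was set beside the number met when one top list is displaced. The replicate 2 top list was moved as a whole by 20, 40, 60, 80 or 100 kb to either side, which keeps peaks in their own neighbourhood, and the same rule was applied. The 782 observed regions stood against 774 to 864 regions over the 10 moves (mean 828.8 ± 25.2, SD), a ratio of 0.94, and 9 of the moves gave more. Pooled over these moves, the regions had median max signals of 21 and 36 in replicates 1 and 2, close to the observed 22 and 36. With the replicate 1 top list moved instead the moves gave 682 to 769 (mean 721.7, ratio 1.08). With a whole top list moved, the observed number was thus below most moves of replicate 2 and above all moves of replicate 1, with ratios near 1. At M15 peaks 4559 regions were observed against 1536 to 1828 after moving the replicate 2 top list, a ratio of 2.77.

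The moved lists also carry peaks of M15 sites to places without an M15 peak, which adds to the number after moving. When the top lists were first reduced to peaks that touch no M15 peak, 20870 in replicate 1 and 16522 in replicate 2, they shared 802 regions against 488 to 559 after moving (mean 525.5, ratio 1.53). Here replicate 1 peaks at M15 sites had been removed, so a moved peak that lands at such a site can lack a partner. That lowers the number after moving, although no region was dropped for touching an M15 peak after the move. Whether the ratio was below or above 1 thus depended on which peaks were moved. These numbers are reference levels and not tests, and no p-value is attached to them. The M15 lists also decide the number: without M15 replicate 2, 2602 regions lacked an M15 peak against a mean of 1980.8 after moving (ratio 1.31), and without M15 replicate 1 there were 803 (ratio 0.96). Among the 4559 other shared regions, 2718 held a peak in both M15 libraries, 1820 in replicate 2 only and 21 in replicate 1 only.

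The depth of the top list changed the number of regions far more than their ratio to moved lists. When lists of the strongest 1%, 2%, 5% and 20% were merged anew, 6, 32, 226 and 2937 regions lacked an M15 peak, against means of 5.6, 29.2, 215.9 and 2957.1 after moving the whole top list. Their share of all shared regions went from 0.60% in the strongest 1% to 30.1% in the strongest 20%. For regions with an M15 peak the ratio was 6.44 in the strongest 1% (993 against a mean of 154.3), 2.30 in the strongest 20% and 1.47 over the full lists. For peaks without an M15 peak moved alone it was 5.45 in the strongest 1%, where 6 regions stood against 0 to 3, and 2.14 in the strongest 5%, where 232 stood against 95 to 137.

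**Figure D2:**
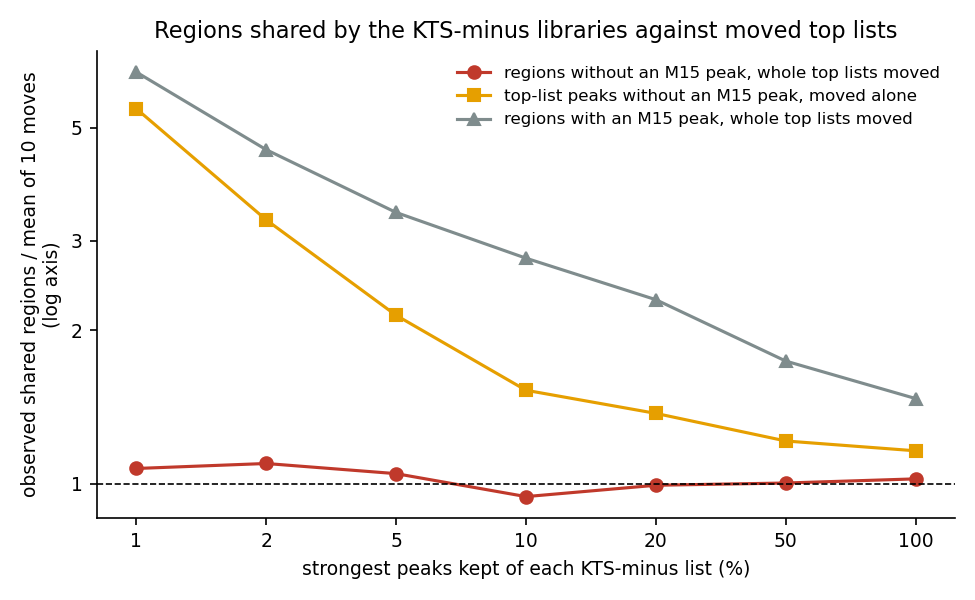
Observed number of shared regions divided by its mean over 10 moves (y, log axis) against the share of each KTS-minus list that was kept (x). The ratio of regions without an M15 peak (red) stays between 0.94 and 1.10, that of peaks without an M15 peak moved alone (orange) goes from 5.45 to 1.16, and that of regions with an M15 peak (grey) from 6.44 to 1.47.

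With the whole top list moved, the ratio to moved lists differed with local peak density. This division was made after the values had been seen. The 1 Mb windows that held a KTS-minus peak were put into 4 classes of 646 or 647 windows by the summed peak number of both full KTS-minus lists. In the sparsest class (1 to 97 peaks) 21 regions without an M15 peak stood against 2 to 13 after moving, a ratio to the mean of 2.80. In the second class (97 to 194 peaks) 73 stood against 29 to 37, a ratio of 2.19. Both sparser classes thus lay above all 10 moves. In the third class (194 to 300 peaks) 112 stood against 108 to 121, and in the densest (301 to 707 peaks) 576 stood against 625 to 709, a ratio of 0.85. The densest class held 73.7% of all regions without an M15 peak and so sets the pooled ratio.

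The 2 sparser classes together held 94 regions (12.02% of the set) against 34 to 49 after moving (mean 40.8, ratio 2.30). With peaks that touch no M15 peak moved alone, 95 stood against 17 to 36 (ratio 3.63), and with the replicate 1 list moved the ratio was 2.51. In the third and densest classes the peaks moved alone also gave more regions than any move, 114 against 66 to 79 (ratio 1.56) and 593 against 394 to 459 (ratio 1.39). With that choice all 4 classes were thus above the moves, and the ratio was higher in the sparser ones. Without M15 replicate 2, 280 regions stood there against a mean of 69.5 (ratio 4.03), and without M15 replicate 1, 101 stood against 41.1 (ratio 2.46). Regions with an M15 peak in the same windows numbered 547 against 38 to 68 after moving, a ratio of 10.2. The move itself raises that ratio by taking peaks off M15 sites, so the 2 ratios are not compared. The 94 regions were narrower than the set as a whole, with a median width of 1590 bp, and farther from M15 binding, with a median of 33891 bp.

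**Figure D3:**
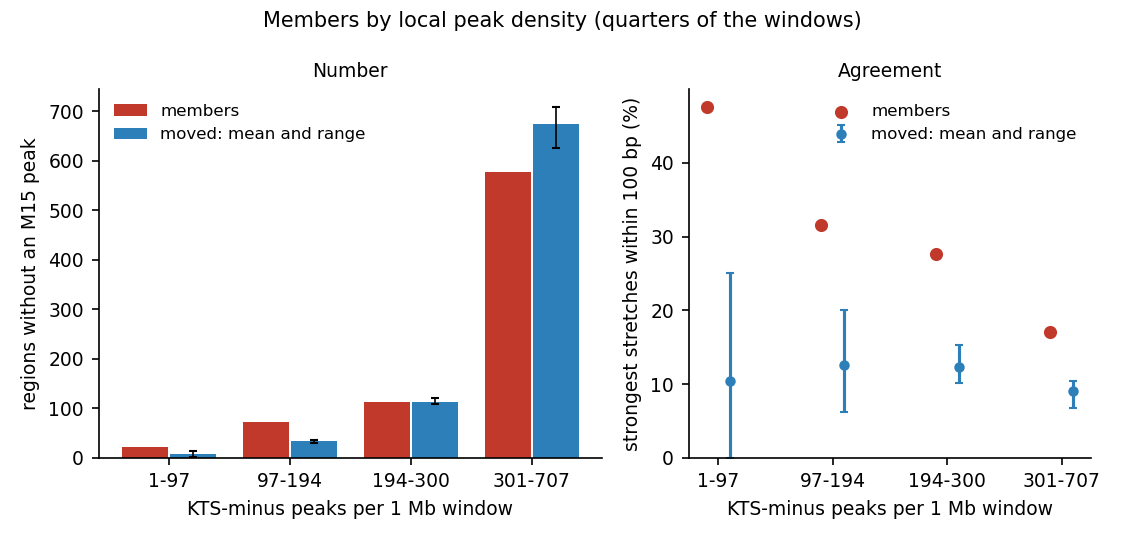
Left, the number of regions without an M15 peak observed (red) and after moving the replicate 2 top list (blue, mean and range of 10 moves) in 4 classes of 1 Mb windows ordered by KTS-minus peaks per window. Right, the share of those regions in which the strongest stretches of the KTS-minus libraries lie within 100 bp. Observed numbers are above the moves in the 2 sparser classes, and the observed share is above the moves in all 4 classes.

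The position of maximal coverage, which the rule did not use, was closer between the KTS-minus libraries than in moved lists. In the observed regions the strongest stretches of the libraries lay a median of 473.5 bp apart (0 where they overlap), against medians of 702 to 787 bp in moved regions without an M15 peak. At the other shared regions the median was 293 bp. The stretches lay within 100 bp of each other in 162 regions without an M15 peak (20.7%, Wilson interval 18.0 to 23.7), in 7.99% to 10.7% of moved regions, and in 32.2% of the other shared regions. At the median and at 100 bp, regions without an M15 peak therefore stood between moved regions and regions with an M15 peak. At 1000 bp they were above both, with 71.9% against 69.5% of the other shared regions and 58.7% to 63.4% of moved ones. Moved regions can hold replicate 2 peaks carried from M15 sites. These distances were not taken with peaks without an M15 peak moved alone.

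**Figure D4:**
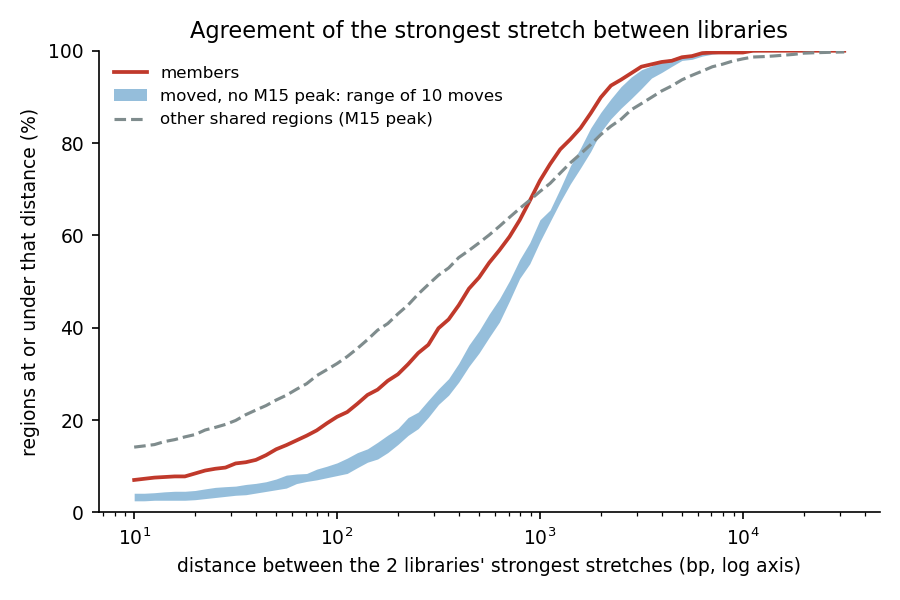
Cumulative share of regions (y) by the distance between the strongest stretches of KTS-minus replicates 1 and 2 (x, log axis). At 100 bp the regions without an M15 peak (red line) reach 20.7%, moved regions without an M15 peak (blue band, range of 10 moves) 7.99% to 10.7% and regions with an M15 peak (grey dashes) 32.2%.

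Narrow regions bring stretches together, and the observed regions were narrower than moved ones, so the share was also taken within classes of width. Below 1500 bp, 59 of 197 regions (29.9%) had stretches within 100 bp, against 17.5% to 25.2% of moved regions. From 1500 to 2500 bp it was 55 of 237 (23.2%) against 7.51% to 13.4%, and from 2500 to 4000 bp 30 of 167 (18.0%) against 5.09% to 9.45%. At 4000 bp and above it was 18 of 181 (9.94%) against 1.63% to 6.81%. The observed share lay above all 10 moves in each class of width. Width here is that of the merged region, so the width of the replicate 2 peak was not matched. The shares also went with density: 47.6% in the sparsest class of windows (10 of 21 regions, against 0 to 25% after moving), 31.5% and 27.7% in the next classes and 17.0% in the densest (against 6.70% to 10.5%). Median width went with density too, at 1076, 1674, 1774.5 and 2639 bp from the sparsest class to the densest, and its part in this order was not tested.

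The 10 regions of the sparsest windows with stretches within 100 bp are named here after their values had been seen. One is the chromosome 18 region of 463 bp described above. On chromosome 18 the region from 66098435 to 66099053 had max signals of 28 and 56 in KTS-minus replicates 1 and 2, with stretches 41 bp apart. On chromosome 12 the region from 100498275 to 100498965 had 23 and 34 with overlapping stretches, and that from 25179079 to 25179909 had 20 and 40 with stretches 1 bp apart. On chromosome 1 the region from 12455702 to 12457297 had 21 and 46 with overlapping stretches and lay 223655 bp from the nearest M15 peak. Its neighbour from 12707946 to 12709021 had 20 and 36, with stretches 68 bp apart and an M15 peak at 1773 bp. Another region of that chromosome, from 141950887 to 141951564, had 22 and 40, with stretches 66 bp apart. On chromosome 13 the region from 64853422 to 64853994 had 20 and 34, with stretches 1 bp apart. On chromosome 7 the region from 67026422 to 67027343 had 27 and 38 with overlapping stretches, but an M15 peak lay 436 bp away. On chromosome 3 the region from 9249305 to 9250518 had 26 and 32, with stretches 41 bp apart and the nearest M15 peak at 94925 bp. These 10 regions were 463 to 1596 bp wide, and some of them lay close to an M15 peak.

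Regions without an M15 peak had a median width of 2353 bp, with the middle 50% between 1491 and 3796 bp and a range of 385 to 21818 bp. The other shared regions had a median of 4153 bp, and moved regions without an M15 peak had medians of 2635.5 to 2866 bp. They were narrower than both. In replicate 2 the peak had a median width of 774 bp, against 1670 bp at the other shared regions and 885 to 1036 bp in moved ones. The replicate 1 peak had 2079.5 bp, against 3765 bp at the other shared regions and 2034 to 2265 bp in moved ones. Peaks of both libraries were thus narrower than at the other shared regions, and those of replicate 2 alone were narrower than in all 10 moves. Wide regions meet an M15 peak more readily, so a set narrower than the other shared regions is built into the rule. Moved regions passed the same rule but can hold replicate 2 peaks carried from M15 sites, which the observed regions cannot. In the replicate 2 top list, peaks that touch an M15 peak had a median width of 1544 bp, and those that touch none 503 bp. The part of this in the difference from moved regions was not tested. Without M15 replicate 2 the median width was 3819.5 bp.

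Most regions were simple in make-up. In 753 of 782 (96.3%) a single peak of each top list overlapped, against 80.1% of the other shared regions, and the replicate 1 peak was the wider one in 663 (84.8%, against 86.0%). Only 83 were under 1 kb and 11 were 10 kb or wider. The widest ran on chromosome 10 from 119358912 to 119380729 over 21818 bp and joined 7 peaks of the top lists, the most of any region. A chromosome X region between 166162888 and 166179266 spanned 16379 bp with 4 such peaks, and its strongest stretches were 11075 bp apart. A chromosome 10 region between 119312320 and 119327742 spanned 15423 bp, with stretches 10026 bp apart. The libraries overlapped in both without sharing a point of maximal coverage. A chromosome 1 region between 163966982 and 163970740 joined 3 peaks. The narrowest were on chromosome 17 from 24479614 to 24479998 (385 bp), the chromosome 18 region of 463 bp named above, and chromosome 4 from 132836753 to 132837218 (466 bp), with stretches 48, 0 and 58 bp apart.

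The shape of the peaks was described by the height of the maximum and the length of its stretch. The max signal was a median of 3.25 times the mean coverage of its peak in replicate 1 and 2.89 times in replicate 2, against 3.34 and 3.30 at the other shared regions. The stretch of maximal coverage was a median of 13 and 15 bp long in replicates 1 and 2, against 12 and 9 bp. Replicate 1 peaks were thus shaped much like those at the other shared regions, and replicate 2 peaks were flatter than there, with a longer stretch. Moved regions without an M15 peak, pooled over the moves, had medians of 3.3 and 3.0 times and of 15 and 14 bp in replicates 1 and 2. The replicate 2 shape was thus close to that of moved regions. The 100 kb on either side were covered by peaks of the full lists to medians of 41.3% in KTS-minus replicate 1, 15.6% in KTS-minus replicate 2, 0 in M15 replicate 1 and 5.13% in M15 replicate 2. Around the other shared regions these medians were 43.5%, 16.6%, 1.43% and 10.3%. The surroundings were thus about as rich in KTS-minus peaks, and poorer in M15 peaks.

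M15 peaks were nonetheless close to many of the regions. The median distance to the nearest M15 peak was 5884.5 bp, and medians of 5032 to 7486.5 bp were found in moved regions. Within 1 kb lay 105 regions (13.4%, against 11.6% to 16.2% of moved regions) and within 10 kb 509 (65.1%, against 57.1% to 67.0%). Distances up to 10 kb were thus those of moved lists. Beyond 100 kb from any M15 peak lay 34 regions (4.35%), against 1.27% to 2.58% of moved regions. A replicate 2 peak carried from an M15 site by at most 100 kb stays within about that distance of the site. This holds the moved share down by construction, so nothing is read from the difference. M15 replicate 2 supplied nearly all the near peaks: 104 regions had one of its peaks within 1 kb, and 5 had one of replicate 1. From M15 replicate 1 alone the median distance was 121202 bp. The nearest cases were on chromosome 11 from 120238708 to 120242310, where an M15 peak was 2 bp away, chromosome 4 from 93854181 to 93856350 (13 bp) and chromosome 19 from 8880743 to 8882104 (26 bp). These are regions whose place in the set hangs on where a peak was taken to end. The third farthest, after the chromosome 18 pair, was on chromosome X from 114800995 to 114804369 at 449094 bp.

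Chromosomes 6, X and 10 held 363 of the 782 regions (46.4%, Wilson interval 43.0 to 49.9), against 33.0% of the other shared regions. Chromosome 6 alone held 175 (22.4%), against 9.50% of the other shared regions, and on it 28.8% of all shared regions lacked an M15 peak. Chromosome X held 98 and chromosome 10 held 90. Moved lists had the same order, with means of 199.7 regions on chromosome 6, 95.9 on X and 91.8 on 10. DNA copy number was not measured, and a chromosome present in more copies cannot be told apart from one with more WT1.

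Against moved lists the chromosomes differed. On chromosomes 1, 3, 7, 12 and 18 the observed numbers of 22, 11, 12, 6 and 11 were above all 10 moves, whose means were 7.9, 3.1, 5.8, 2.4 and 2.7. On chromosomes 6, 11, 15 and 19 the observed 175, 36, 46 and 57 were below all 10 moves, whose means were 199.7, 51.8, 74.5 and 71.4. On the other 11 chromosomes the observed number lay inside the range of the moves. Chromosome 18, with 4.07 times its mean after moving, had the highest ratio, from 11 regions. All 11 of these, all 11 on chromosome 3 and all 6 on chromosome 12 lay in the 2 sparser classes of windows.

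**Figure D5:**
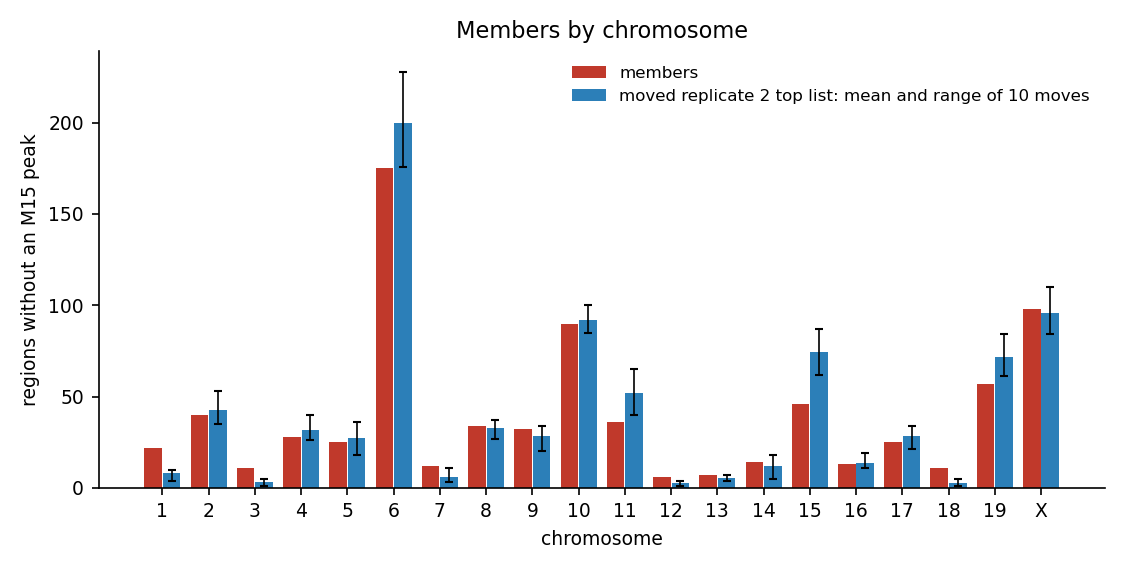
Number of regions without an M15 peak per chromosome observed (red) and after moving the KTS-minus replicate 2 top list (blue, mean of 10 moves with their range). Chromosome 6 has 175 observed regions against a mean of 199.7, and chromosomes 1, 3, 7, 12 and 18 have more than in any move.

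Clusters followed the densest windows. Another region of the set lay within 100 kb of 212 regions (27.1%, Wilson interval 24.1 to 30.3), against 74.1% of the other shared regions and 28.9% to 38.1% of moved ones. Within 10 kb it was 4.99% against 36.8% and 4.52% to 9.12%. Within 1 Mb it was 69.3%, against 73.2% to 78.7% of moved regions. The regions were thus less clustered than in all 10 moves at 100 kb and 1 Mb, and inside their range at 10 kb. Of the moves, 9 also held more regions. Their regions can include replicate 2 peaks carried from M15 sites, and clustering was not taken with peaks without an M15 peak moved alone. The observed regions were less crowded than shared regions with an M15 peak, of which there were more. Without M15 replicate 2, 63.3% had a neighbour within 100 kb. The set occupied 490 windows of 1 Mb, 341 of them with a single region. In 17 windows there were 5 or more, and these held 127 regions (16.2%).

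The 4 fullest windows were all on chromosome 10. From 118000001 to 119000000 there were 15 regions, against a mean of 15.4 after moving, and the strongest was that from 118843706 to 118853839 (24 and 42 in KTS-minus replicates 1 and 2). From 119000001 to 120000000 there were 13 against 15.8, led by the region from 119822247 to 119826011 (25 and 55). From 123000001 to 124000000 there were 11 against 9.3, led by that from 123051956 to 123058478 (29 and 43). The numbers in these windows were close to those of moved lists. The longest chain, with gaps under 100 kb, joined 15 regions from 118607791 to 119110536, and the next joined 11 from 120568661 to 121016068, both on chromosome 10. The segment of chromosome 10 from 118000001 to 128000000 held 66 of the 90 regions of that chromosome, against 60 to 79 after moving, with a median width of 4914 bp. Away from chromosome 10 the fullest windows were on chromosome X from 165000001 to 166000000, with 9 against a mean of 7.4, and on chromosome 6 from 37000001 to 38000000, with 8 against 4.3.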

How the data were processed

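The deposited files are 1 peak list per WT1 library. Per the submitters' processing notes, the build was mm9 and the tools were SEACR 1.3, Bowtie2 2.2.6, SAMtools 1.3, Picard 2.5.0, FastQC 0.11.8 and bedtools 2.23.0. The 6 columns follow SEACR's layout, and total and max signal are the authors' deposited coverage values, all whole numbers. For their scaling, and for the control and threshold of the peak calling, the sources used here give nothing.

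Peaks were ranked by max signal, with ties broken by total signal, chromosome and start, and the number kept was rounded to whole peaks. Distances count 1 for adjoining bases. The moves were fixed distances, not random draws, and a moved peak may fall on sequence where no peak can be listed. Peaks are not replicates, and 2 libraries against 2 cannot give an exact permutation p below 0.333, so no test was run. By the naming rule the text gives the 8 with the best mean rank, the extremes of width and of distance to M15 peaks, those with the most top-list peaks, the leading region of the 3 fullest windows and those beside the limit. Regions of the sparsest windows were named after their values had been seen. Members, lists and measures were chosen with earlier results of these data known. The classes of density and of width, and moving peaks without an M15 peak alone, were added after seeing the data. Planned analyses of motifs and gene context were not run for want of an mm9 genome. Merging was checked on made-up lists with known answers. Python 3.11.15, numpy 2.4.6, pandas 2.3.3, scipy 1.17.1 and matplotlib 3.10.9 were used.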

Additional observations from a re-analysis of the deposited data

How the results depend on the processing

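Of 86 recomputed values, 26 stayed within their limits (a factor of 1.5 for counts, 1 SD over the moves for ratios, a 95% interval over regions for medians and shares) and 60 moved. Most values thus went beyond these limits, which are narrow for ratios: a change from 0.94 to 0.99 counts as moved. Some alternatives, such as another depth of the top list, change a number by construction. The cause of each change was not tested beyond what the alternative itself alters. The number of regions, 782 as reported, was 226 with the strongest 5% of peaks, 2937 with 20%, 1714 when ranked by total signal (258 of the 782 were kept), 176 with 50% reciprocal overlap, 43 when only the strongest stretches were overlapped, 273 with no M15 peak within 10 kb and 419 without chromosomes 6, 10 and X. Leaving out M15 replicate 1 or 2 gave 803 or 2602 regions. Without KTS-minus replicate 1 or 2 no sharing is asked for, and 16522 or 20870 single peaks of the remaining top list lacked an M15 peak. The ratio to moved lists, 0.94 as reported, was 1.05 at 5%, 0.99 at 20%, with top lists of equal length and by total signal, 1.19 with reciprocal overlap, 1.99 for strongest stretches, 1.08 with replicate 1 moved and 1.53 with peaks without an M15 peak moved alone. It was 0.96 to 1.31 with 1 M15 library left out. In the sparser windows, 2.30 as reported, it was 3.86 at 5%, 1.81 at 20%, 3.64 by total signal, 4.64 with reciprocal overlap, 3.63 with peaks without an M15 peak moved alone and 2.46 to 4.03 with 1 M15 library left out. The share of shared regions without an M15 peak, 14.6% as reported, was 7.16% at 5%, 30.1% at 20%, 13.1% with top lists of equal length, 18.7% by total signal, 9.01% with reciprocal overlap, 7.92% for strongest stretches, and 12.7% and 5.11% with margins of 1 and 10 kb. The median width was 1971 bp at 20%, 3524.5 bp by total signal, 1471 bp with reciprocal overlap, 2026 bp without chromosomes 6, 10 and X and 2351 to 3819.5 bp with 1 M15 library left out. The median distance between strongest stretches was 386.5 bp at 5%, 798 bp by total signal, 134 bp with reciprocal overlap, 374 bp without chromosomes 6, 10 and X and 462 to 696.5 bp with 1 M15 library left out. The median distance to an M15 peak was 7659 bp at 20%, 4772.5 bp by total signal and 5925 to 78935.5 bp with 1 M15 library left out. The share with a neighbour within 100 kb was 16.8% at 5%, 49.0% at 20%, 55.3% by total signal, 6.82% with reciprocal overlap, 11.7% without chromosomes 6, 10 and X and 26.7% to 63.3% with 1 M15 library left out, and within 10 kb and 1 Mb it was 4.99% and 69.3%. Of the 25 members named by the rule, 14 remained in the set at 5%, 11 by total signal and 5 with reciprocal overlap. No paired analysis was possible because no result comes from a test and the replicate numbers of the lines share no stated culture or day.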
